A study of Rattus norvegicus with 48 samples.

Results

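A set of 10 genes of the BCL2 family was followed across 48 rat livers: the survival genes Mcl1, Bcl2 and Bcl2l1, the pore-forming death genes Bax and Bak1, and the BH3-only death genes Bcl2l11, Bid, Bad, Bbc3 and Pmaip1. They were taken by gene symbol, and each was represented by its probe set of highest mean level. All 10 were measured, among 14506 genes that had a probe set with a single symbol. The 10 genes had 13 probe sets, because Mcl1, Bcl2l1 and Bax had 2 each.

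RNA came from biopsies of the right liver lobe of anaesthetized male Wistar rats, 1 Affymetrix array per rat. The age of the rats is not given in the sources used here. Sham rats (n = 8) had no liver ischemia. IRI rats (n = 10) had 30 min of ischemia of the whole liver and were sampled after 30 min of reperfusion. In IPC rats (n = 10, ischemic preconditioning) the insult followed a short ischemia of 10 min and a reperfusion of 10 min. In IPO rats (n = 10, ischemic postconditioning) flow was let in for 30 sec and stopped for 30 sec, in 3 cycles, as soon as the insult ended. IPC+IPO rats (n = 10) had both. The 4 ischemic groups therefore share the insult, and every group shares the anaesthesia and the opening of the abdomen.

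Proteins of the BCL2 family decide whether the outer membrane of the mitochondrion stays closed. BAX and BAK1 form the pores that release cytochrome c, the survival members hold them in check, and BH3-only proteins, made or activated under stress, bind the survival members or switch on BAX and BAK1 directly. MCL1 is a short-lived protein on which hepatocytes are known to depend, and BID links death receptors at the hepatocyte surface to the mitochondrion.

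The deposited values are log2 signals, so a difference of 1 is a doubling, and errors are SD for a group and SE for a difference. Differences were tested with limma over all 14506 genes, two-sided, and a gene was called at a Benjamini-Hochberg adjusted p under 0.05. The arrays differed in spread, meaning the SD of log2 signal across the genes on an array. Mean spread was 1.91 ± 0.065 in IPO, 1.86 ± 0.15 in IPC+IPO, 1.85 ± 0.083 in IPC, 1.77 ± 0.11 in IRI and 1.72 ± 0.13 in Sham. It moves with several of the results, which are therefore also given from a fit with spread as a covariate. The 8 hepatocyte markers had means from 9.39 (Hnf4a) to 13.25 (Alb), and the 6 measured lymphocyte markers from 3.57 (Ms4a1) to 6.06 (Cd79b). In whole biopsies, fewer cells of a type and less RNA per cell cannot be told apart.

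In the test of any difference between the 5 groups, 2 of the 10 genes were called, Mcl1 (adjusted p = 0.0263) and Pmaip1 (adjusted p = 0.0213), with limma's moderated F test. Over all genes 14.4% were called, so the share of the BCL2 genes was near the background. Bax (adjusted p = 0.111) and Bcl2l11 (adjusted p = 0.14) followed without passing. Without Sham rat 42 or Sham rat 46, neither Mcl1 nor Pmaip1 was called; Mcl1 was also lost without Sham rat 41 or 47 and Pmaip1 without Sham rat 45. With array spread as a covariate, 1.34% of all genes and 0 of the 10 were called in this F test (Mcl1 at an adjusted p of 0.804, Pmaip1 at 0.449).

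**Figure D1:**
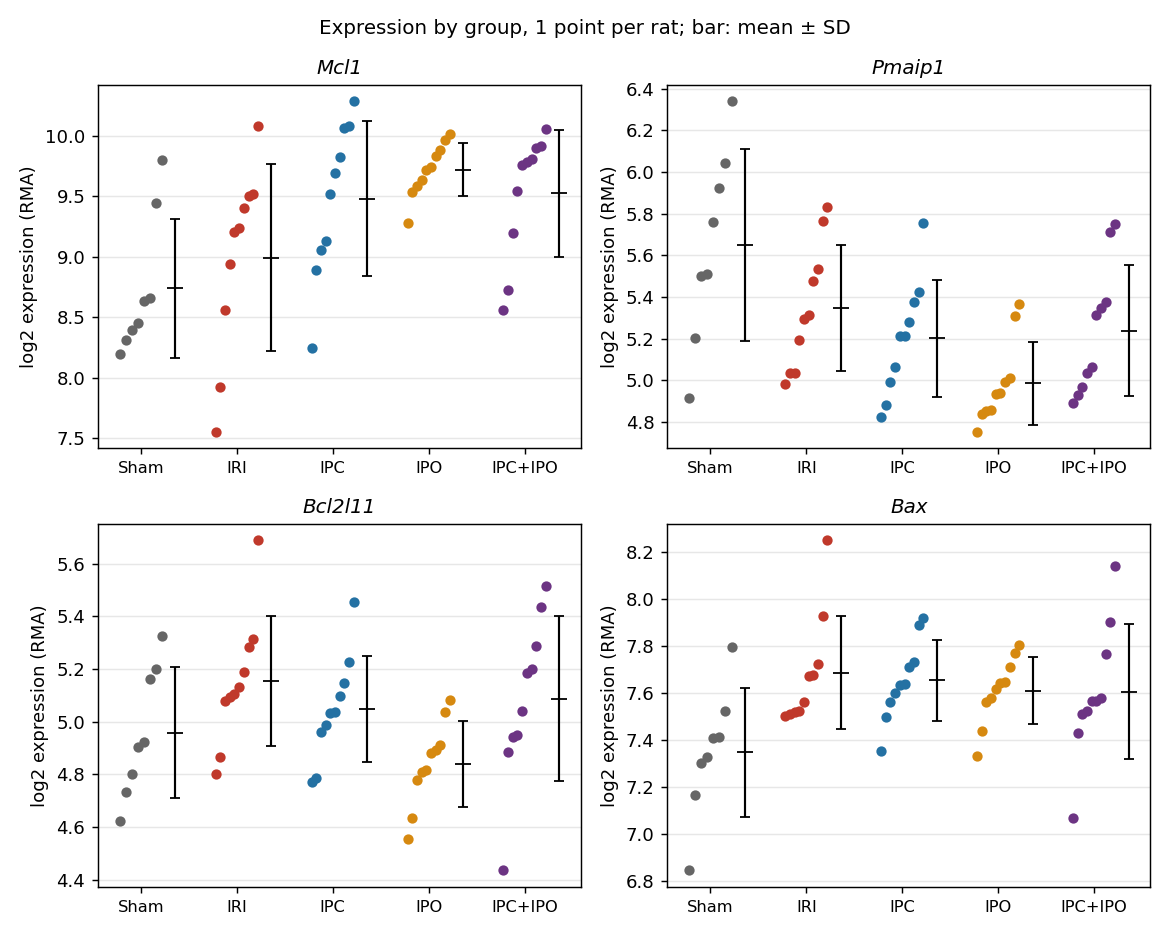
Log2 signal of Mcl1, Pmaip1, Bcl2l11 and Bax in each of the 48 rats, by group, with group means and SD. Mcl1 has its highest mean and smallest SD in IPO (9.28 to 10.02), and Pmaip1 reaches highest in Sham (up to 6.34). Bcl2l11 is lowest on average in IPO and Bax is lowest on average in Sham, and the groups overlap.

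The survival gene Mcl1 (probe set 10940458) was higher in postconditioned livers than in IRI and in Sham livers. Its lowest, median and highest values were 8.20, 8.54 and 9.80 in Sham, 7.55, 9.22 and 10.08 in IRI, and 8.25, 9.61 and 10.29 in IPC. They were 9.28, 9.73 and 10.02 in IPO and 8.56, 9.77 and 10.06 in IPC+IPO. IPO values form a narrow band near the top of the range, whereas IRI values run from the lowest of all rats to close to the highest, so the groups overlap. The order of the means was IPO, IPC+IPO, IPC, IRI and Sham, and no neighbouring pair in that order differed at the threshold.

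Mcl1 rose 1.66-fold in IPO against IRI (0.73 ± 0.25 on the log2 scale, 95% interval 0.24 to 1.22, limma adjusted p = 0.0332). In that comparison 6 IRI rats lay below every IPO rat and 1 lay above every IPO rat. Against Sham, Mcl1 rose 1.98-fold in IPO (0.98 ± 0.26, limma adjusted p = 0.00956). Here 4 IPO rats lay above every Sham rat and 6 Sham rats below every IPO rat. The other differences pointed the same way without passing: 0.49 ± 0.25 in IPC against IRI (adjusted p = 0.261), 0.53 ± 0.25 in IPC+IPO against IRI (adjusted p = 0.202), 0.74 ± 0.26 in IPC against Sham (adjusted p = 0.0724) and 0.79 ± 0.26 in IPC+IPO against Sham (adjusted p = 0.0674). IRI and Sham livers differed by 0.25 ± 0.26 (adjusted p = 0.786). The comparisons with IRI share the same 10 IRI rats and those with Sham the same 8 Sham rats.

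Both Mcl1 calls went with array spread. Over the 48 arrays, Mcl1 followed spread with Pearson r = 0.876 and Spearman rho = 0.857 (permutation p = 1e-05 each, the smallest these permutations can give, and adjusted p = 2.5e-05 and 2e-05 over 10 genes). After removal of the 2 arrays of most extreme spread r was 0.889, and within groups it was 0.829. Of all genes, 2.98% had a larger absolute r with spread. In the fit with spread the difference of IPO from IRI was 0.14 ± 0.15 (limma adjusted p = 0.823) and that of IPO from Sham 0.20 ± 0.17 (adjusted p = 0.735). That fit called 0.0138% of all genes in IPO against IRI and 0% in IPO against Sham, and 0 of the 10 BCL2 genes in either. What part of the Mcl1 difference comes from the arrays and what part from the livers was not tested.

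**Figure D2:**
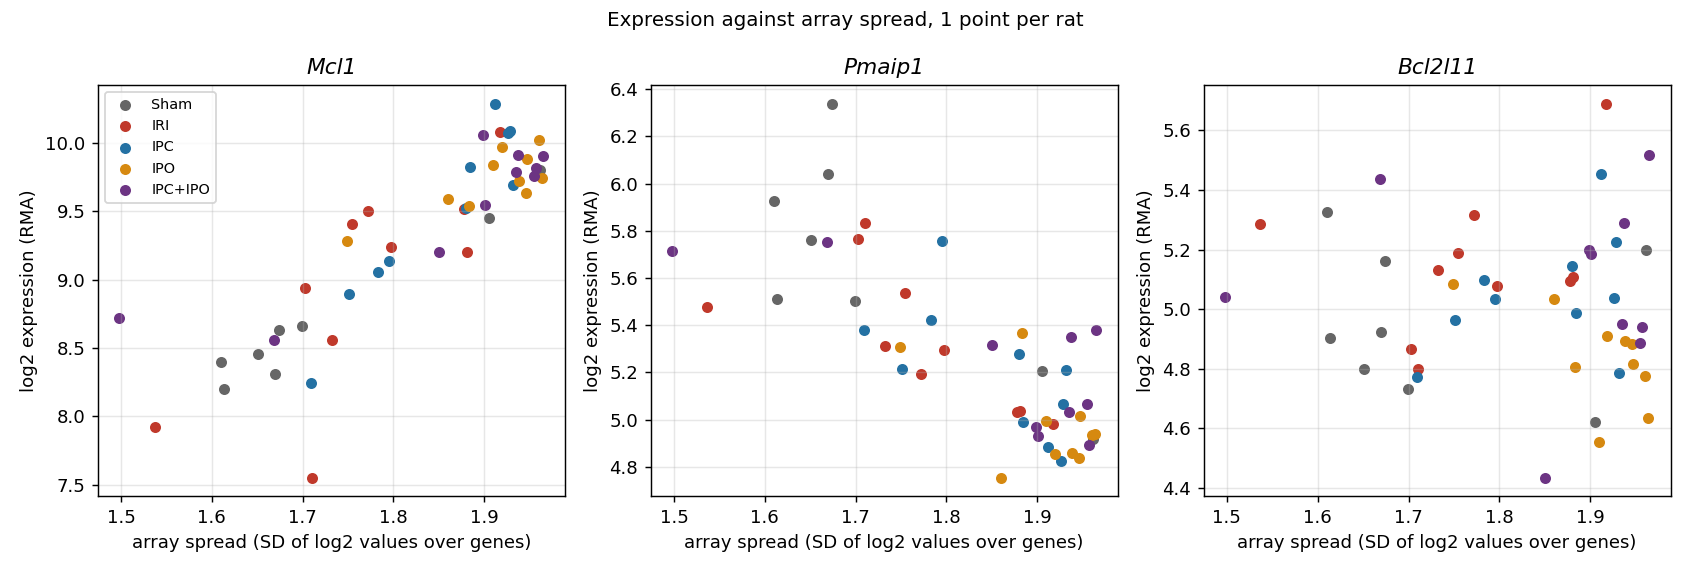
Log2 signal of Mcl1, Pmaip1 and Bcl2l11 (vertical axes) against the spread of each array (horizontal axis, SD of log2 values), coloured by group. Mcl1 climbs with spread (r = 0.876), Pmaip1 declines with it (r = -0.778), and Bcl2l11 has little slope over all arrays (r = -0.079).

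The second Mcl1 probe set (10840632), with a mean of 6.80, gave a different result. Its group means were 6.83 in IPO, 6.81 in Sham and in IPC+IPO, and 6.77 in IRI and in IPC. IPO differed from IRI by 0.061 ± 0.077 (limma adjusted p = 0.527) and from Sham by 0.026 ± 0.082 (adjusted p = 0.818) at this probe set, over all probe sets with a single symbol. The rise of Mcl1 in IPO therefore rests on 1 of its 2 probe sets. Within the calls, single rats counted too: leaving out any one of 8 of the 48 rats (IRI 7, 8, 9 or 10, or IPO 22, 26, 27 or 29) ended the call of Mcl1 in IPO against IRI, with adjusted p up to 0.1 and differences between 0.57 and 0.85 over all 48 omissions. None of the 48 omissions ended the call against Sham, where adjusted p reached 0.0268.

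**Figure D3:**
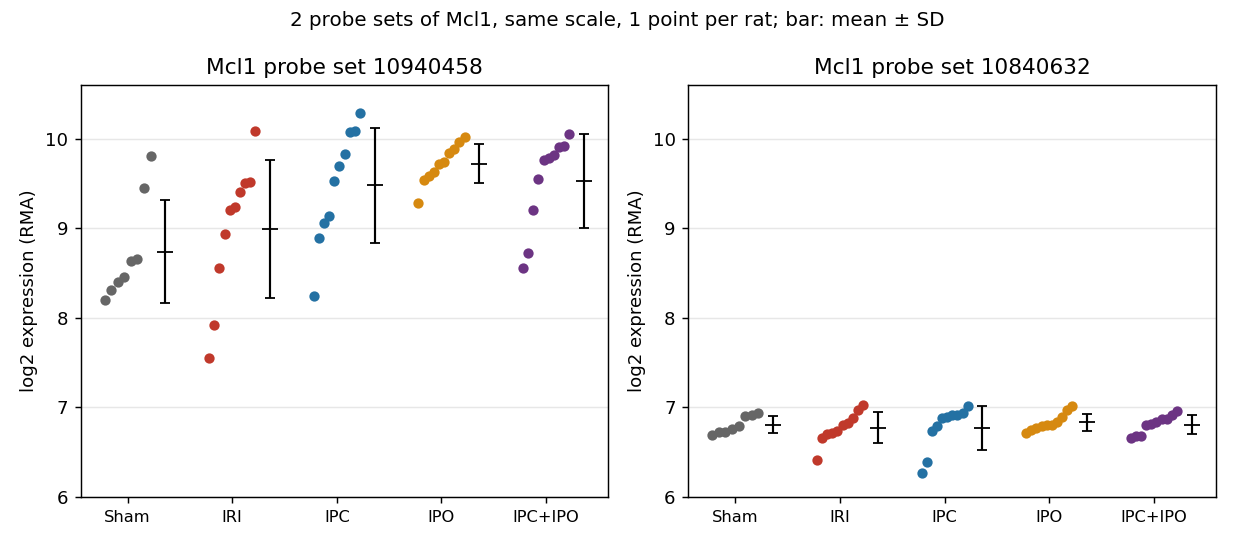
Log2 signal of the 2 Mcl1 probe sets in each rat on axes of the same scale, by group. The probe set of higher mean (10940458) ranges from 7.55 to 10.29, while group means of the other (10840632) lie between 6.77 and 6.83.

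Mcl1 also varied more between rats than the median gene. Its SD was 0.78 in IRI, 0.64 in IPC, 0.58 in Sham, 0.52 in IPC+IPO and 0.22 in IPO. The median SD over all genes in those groups was 0.31, 0.24, 0.27, 0.28 and 0.17. IPO was the group of smallest SD for Mcl1 and also for the median gene.

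Promoters of the called survival gene and the called BH3-only gene in the comparison of IPO with IRI are shown because these genes moved in opposite directions there. Each is the stretch of 250 bases before the RefSeq transcription start in build GRCr8, on the + strand, with capitals marking motif matches.

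Mcl1, chr2:185907918-185908167: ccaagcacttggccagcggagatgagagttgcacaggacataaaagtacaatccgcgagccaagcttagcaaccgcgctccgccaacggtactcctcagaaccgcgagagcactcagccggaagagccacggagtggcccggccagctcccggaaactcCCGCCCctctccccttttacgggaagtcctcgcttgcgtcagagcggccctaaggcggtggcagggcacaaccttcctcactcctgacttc

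Bcl2l11, chr3:135819792-135820041: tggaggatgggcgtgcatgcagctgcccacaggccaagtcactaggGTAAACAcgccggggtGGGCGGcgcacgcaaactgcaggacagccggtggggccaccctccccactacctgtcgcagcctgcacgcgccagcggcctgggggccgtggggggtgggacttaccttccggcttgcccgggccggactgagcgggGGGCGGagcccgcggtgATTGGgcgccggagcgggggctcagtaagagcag

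Mcl1 has 62% G and C in this window and Bcl2l11 72%, against a median of 51.2% over 33469 windows. Mcl1 has 1 GC box (GGGCGG, here on the other strand as CCGCCC), 91 to 86 bases before the start. Bcl2l11 has GC boxes 188 to 183 and 51 to 46 bases before the start, a CCAAT box (here as ATTGG) 34 to 30 bases before it and a FOXO site (GTAAACA) 204 to 198 bases before it. On both strands, a GC box is found in 30.5% of all windows of this length, a CCAAT box in 34% and GTAAACA in 3.21%. Of the 8 members with a window in the table, Bad is the other one that holds GTAAACA. The AP-1 site TGANTCA (6.34% of all windows), the cyclic AMP response element TGACGTCA (1.59%), the heat shock element GAANNTTC (7.23%), the E-box CACGTG (5.59%) and the serum response element (1.5%) had no match in the windows of the 8 members. The hypoxia response core ACGTG, which the E-box contains, is held by Bcl2 and Bcl2l1 (16.6% of all windows). The STAT site TTCNNNGAA (7.67%) is in Bcl2l1 and Bad, and TATAAA (12.9%) in Bcl2. These are letters in a window, and binding was not measured here.

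The survival genes Bcl2 and Bcl2l1 did not pass in any comparison. Bcl2 (probe set 10766953), the founding survival gene of the family, had lowest, median and highest values of 4.38, 4.80 and 5.14 in Sham, 4.53, 4.75 and 5.43 in IRI, 4.52, 4.67 and 4.89 in IPC, 4.47, 4.70 and 5.08 in IPO and 4.48, 4.69 and 5.16 in IPC+IPO. All 5 groups overlap over almost their whole range, and the group means lie within 0.099 of each other. The difference of IPO from IRI was -0.075 ± 0.096 with a 95% interval of -0.27 to 0.12.

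Bcl2l1 (probe set 10724228) codes for BCL-XL, the survival protein that shares the protection of hepatocytes with MCL1. Its lowest, median and highest values were 6.55, 7.06 and 7.47 in Sham, 6.50, 6.94 and 7.39 in IRI, 6.998, 7.10 and 7.78 in IPC, 6.70, 7.22 and 7.41 in IPO and 6.04, 7.34 and 7.44 in IPC+IPO. The IRI median is the lowest of the 5, and the lowest single value belongs to IPC+IPO rat 38. Differences from IRI were 0.28 ± 0.14 in IPC (limma adjusted p = 0.258), 0.26 ± 0.14 in IPO (adjusted p = 0.134) and 0.22 ± 0.14 in IPC+IPO (adjusted p = 0.32). Without IPC+IPO rat 38 the last was called, at 0.345 (adjusted p = 0.0472). The 3 differences with the spread covariate were 0.14 ± 0.11, 0.027 ± 0.12 and 0.075 ± 0.11. The second Bcl2l1 probe set gave 0.14 ± 0.10 in IPC and 0.12 ± 0.10 in IPO against IRI.

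Among the BH3-only genes, Bcl2l11 (probe set 10839655) was lower in IPO than in IRI. It codes for BIM, which binds every survival member and is a known target of FOXO factors. Bcl2l11 was dim, with a mean of 5.02 at percentile 29.5 of all genes. Its lowest, median and highest values were 4.62, 4.91 and 5.33 in Sham, 4.80, 5.12 and 5.69 in IRI, 4.77, 5.04 and 5.45 in IPC, 4.55, 4.85 and 5.08 in IPO and 4.44, 5.11 and 5.52 in IPC+IPO. IPO is the group whose highest value is lowest, and IRI is the group whose lowest value is highest. Bcl2l11 fell by 0.32 ± 0.11 on the log2 scale in IPO against IRI (95% interval -0.53 to -0.10, limma adjusted p = 0.0346), with 7 IRI rats above every IPO rat and 3 IPO rats below every IRI rat. IPO livers did not differ from Sham livers past the threshold (-0.12 ± 0.11, adjusted p = 0.418), nor IRI livers from Sham livers (0.20 ± 0.11, adjusted p = 0.524).

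Bcl2l11 showed little relation to array spread over all arrays, and relations of opposite sign within single groups. Over the 48 arrays r was -0.079 (permutation p = 0.596) and rho -0.0854 (permutation p = 0.564), and r with group means removed was 0.0245. It was -0.629 within IPO and 0.305 within IRI. With spread as a covariate the difference was -0.32 ± 0.12, as large as without it, at an unadjusted p of 0.00724. Its limma adjusted p in that fit was 0.289, where 2 genes of the whole table were called. Without the 14 arrays of lowest spread, Bcl2l11 was still called in IPO against IRI and Mcl1 was not. The call was lost on leaving out any one of 6 rats (IRI 1 or 7, or IPO 21, 22, 26 or 27), with adjusted p up to 0.0822 and differences from -0.36 to -0.26 over all 48 omissions. After a renewed quantile normalization it stood at -0.17 ± 0.12 (adjusted p = 0.3).

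The mean of Bcl2l11 in livers with both interventions lay nearer to that of IRI than to that of IPO, and neither difference passed. IPC+IPO differed from IRI by -0.068 ± 0.11 (limma adjusted p = 0.709) and from IPO by 0.25 ± 0.11 (adjusted p = 0.938). IPC differed from IRI by -0.11 ± 0.11 (adjusted p = 0.557). The interaction, which asks whether the effect of one intervention depends on the other, was 0.36 ± 0.15 (adjusted p = 0.22) and did not pass.

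Pmaip1 (probe set 10802375) codes for NOXA, the BH3-only protein that binds MCL1 and promotes its breakdown. Its lowest, median and highest values were 4.92, 5.64 and 6.34 in Sham, 4.98, 5.30 and 5.83 in IRI, 4.82, 5.21 and 5.76 in IPC, 4.75, 4.94 and 5.37 in IPO and 4.89, 5.19 and 5.75 in IPC+IPO. By mean, Pmaip1 was highest in Sham and lowest in IPO, whereas Mcl1 was highest in IPO and lowest in Sham. Pmaip1 fell by 0.67 ± 0.15 in IPO against Sham, to a level 1.59-fold lower (limma adjusted p = 0.00399), with 4 IPO rats below every Sham rat and 6 Sham rats above every IPO rat. None of the 48 omissions of 1 rat ended that call, and adjusted p reached 0.0152.

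Pmaip1 differences from IRI were smaller than those from Sham. In IPO against IRI it was -0.36 ± 0.14 (limma adjusted p = 0.0508), just outside the threshold, with 6 IPO rats below every IRI rat. Leaving out any one of 12 rats brought it inside (IRI 1, 2, 4 or 6, IPC 17, IPO 24 or 30, IPC+IPO 37 or 38, Sham 43, 45 or 48), and leaving out IRI rat 7 moved the adjusted p to 0.107. IPC and IPC+IPO differed from IRI by -0.14 ± 0.14 and -0.11 ± 0.14. Against Sham the differences were -0.30 ± 0.15 in IRI (adjusted p = 0.417), -0.45 ± 0.15 in IPC (adjusted p = 0.0522) and -0.41 ± 0.15 in IPC+IPO (adjusted p = 0.0876).

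Pmaip1 also moved with array spread, in the direction opposite to Mcl1. Over all genes the sign of r with spread went with signal level. The median r was 0.62 for genes above the median level of 5.87 (85.5% above 0). For genes below that level it was -0.57 (13.8% above 0). Mcl1, with a mean of 9.32, lies above that level and Pmaip1, with a mean of 5.27, below it. Pearson r was -0.778 and Spearman rho -0.745 over the 48 arrays (permutation p = 1e-05 each, adjusted p = 2.5e-05 and 2e-05 over 10 genes), r was -0.809 after removal of the 2 arrays of most extreme spread, and it was -0.706 within groups. Of all genes, 16.6% had a larger absolute r. With spread as a covariate the difference of IPO from Sham was -0.30 ± 0.12 (95% interval -0.54 to -0.060, limma adjusted p = 0.371). That of IPO from IRI was -0.086 ± 0.11 (adjusted p = 0.846). What part of the Pmaip1 difference comes from the arrays was not tested.

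Bid, Bad and Bbc3 did not pass in any comparison. Bid (probe set 10865222), the BH3-only protein cut by caspase 8, had lowest, median and highest values of 6.87, 7.27 and 7.81 in Sham, 7.18, 7.57 and 8.19 in IRI, 7.26, 7.70 and 8.30 in IPC, 6.69, 7.70 and 7.90 in IPO and 6.88, 7.56 and 8.04 in IPC+IPO. Sham has the lowest median, and every group overlaps it. The difference of IRI from Sham was 0.34 ± 0.16 (limma adjusted p = 0.394) and that of IPC from Sham 0.40 (adjusted p = 0.108). In 1 of 10 alternatives the difference of IRI from Sham had the other sign (-0.2). The r of Bid with array spread was 0.448 over the 48 arrays and 0.741 within Sham. The 3 intervention groups lay within 0.062 of IRI. Without Sham rat 48, Bid was called in IPC against Sham (limma adjusted p = 0.041). Without IPO rat 30, it was called in IPO against Sham (limma adjusted p = 0.0355).

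Bad (probe set 10713458), which growth factor signalling holds inactive by phosphorylation, ran from 6.13 through a median of 6.34 to 6.71 in Sham and from 6.23 through 6.50 to 7.19 in IRI. Its medians were 6.49 in IPO, 6.51 in IPC and 6.47 in IPC+IPO, so the 4 ischemic groups share almost 1 median and Sham lies lower. IRI differed from Sham by 0.21 ± 0.11 (limma adjusted p = 0.481), and in 1 of 10 alternatives this difference had the other sign (-0.19). The r of Bad with array spread was 0.246 over the 48 arrays and 0.892 within Sham. Bbc3 (probe set 10940588), which codes for PUMA, had medians of 7.39 in Sham, 7.32 in IRI, 7.29 in IPC, 7.25 in IPC+IPO and 7.19 in IPO, with all values between 6.94 and 7.69. Its largest difference from IRI was -0.13 ± 0.075 in IPO (limma adjusted p = 0.175).

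**Figure D4:**
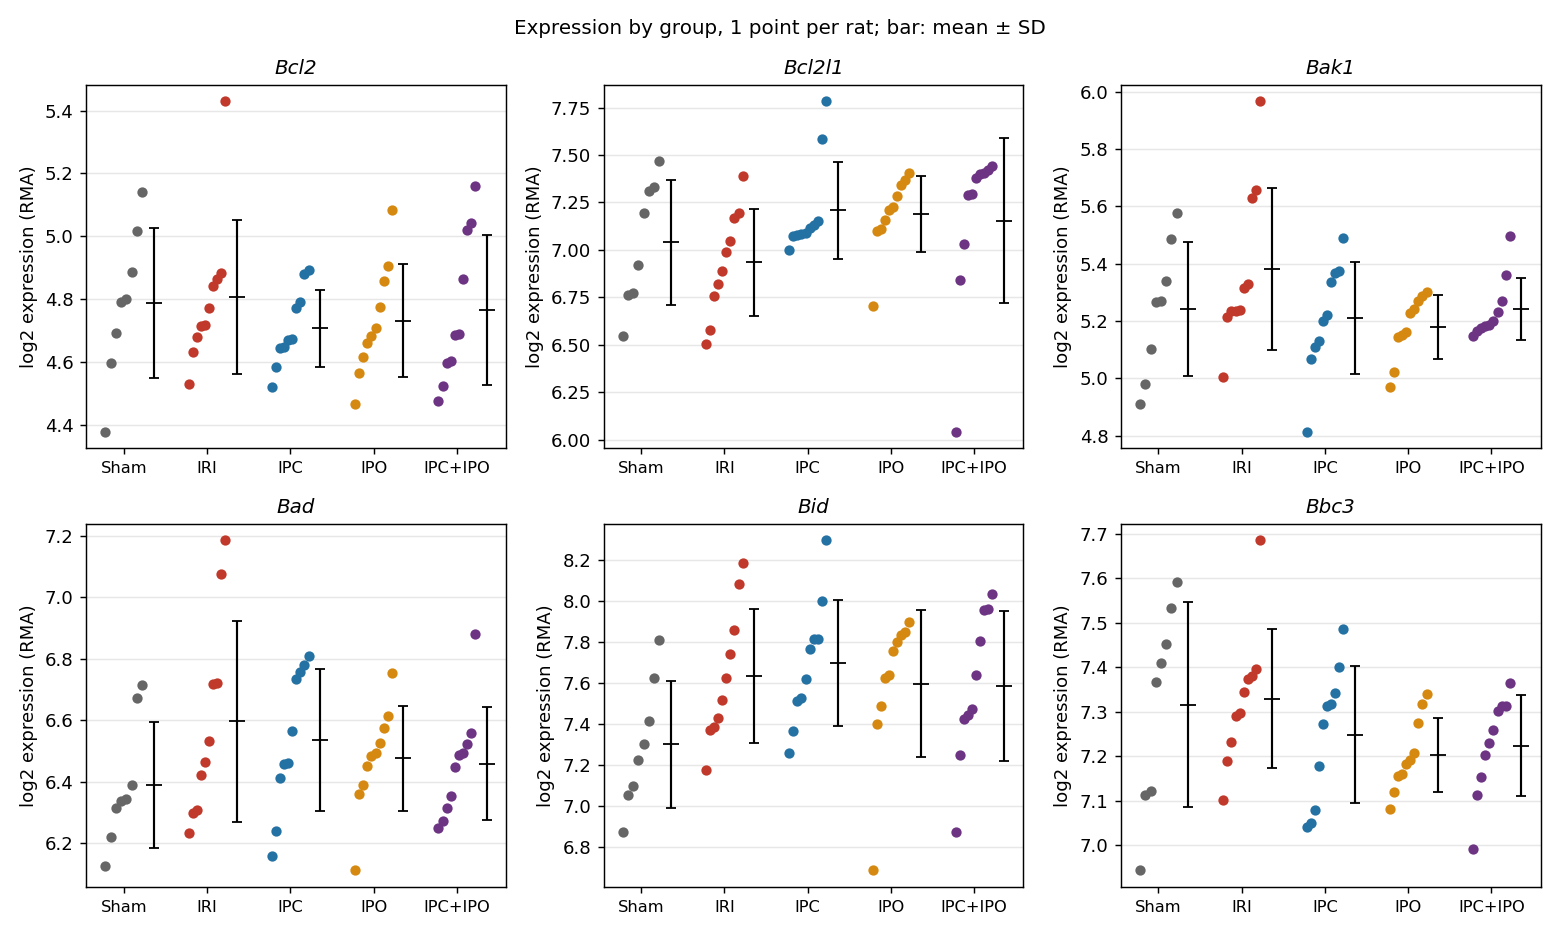
Log2 signal of Bcl2, Bcl2l1, Bak1, Bad, Bid and Bbc3 in each rat, by group, with group means and SD. The groups overlap for each of these 6 genes, and none was called in any comparison.

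The pore-forming gene Bax was the BCL2 gene of smallest p in IRI against Sham. Bax (probe set 10738460) had lowest, median and highest values of 6.85, 7.37 and 7.80 in Sham, 7.51, 7.62 and 8.25 in IRI, 7.35, 7.64 and 7.92 in IPC, 7.34, 7.63 and 7.81 in IPO and 7.07, 7.57 and 8.14 in IPC+IPO. The medians of the 4 ischemic groups lie close together, and 6 of the 8 Sham rats lie below every IRI rat. IRI differed from Sham by 0.34 ± 0.11 (95% interval 0.12 to 0.56, limma adjusted p = 0.159). The difference was not called, in a comparison where 0.241% of all genes were called and 0 of the 10 BCL2 genes. At an unadjusted p under 0.05 there were 3 of the 10 (Bax, Bid and Pmaip1) and 1662 of 14506 genes.

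Differences of Bax from Sham in the other ischemic groups did not pass either, at 0.31 ± 0.11 in IPC (limma adjusted p = 0.0795), 0.26 ± 0.11 in IPO (adjusted p = 0.0702) and 0.26 ± 0.11 in IPC+IPO (adjusted p = 0.143). These share the 8 Sham rats. Sham rat 48 is the highest of the Sham rats, and without it IRI against Sham was called for Bax (0.40, adjusted p = 0.0364). The fit with spread as a covariate gave 0.31 ± 0.10 for IRI against Sham (adjusted p = 0.0592), where 5.89% of all genes were called. Without the 14 arrays of lowest spread, which leaves 2 Sham rats, it was -0.015 ± 0.14. The second Bax probe set (10721834) differed from Sham by 0.011 ± 0.11 in IPO, -0.012 ± 0.11 in IRI, -0.048 ± 0.11 in IPC+IPO and -0.077 ± 0.11 in IPC, so the 2 probe sets of Bax disagree.

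Bak1 (probe set 10831816), the second pore-forming gene, had lowest, median and highest values of 4.91, 5.27 and 5.58 in Sham, 5.01, 5.28 and 5.97 in IRI, 4.81, 5.21 and 5.49 in IPC, 4.97, 5.20 and 5.30 in IPO and 5.15, 5.19 and 5.50 in IPC+IPO. The medians are nearly level, and the highest values belong to IRI. IPO differed from IRI by -0.21 ± 0.091 (limma adjusted p = 0.0818), IPC by -0.17 ± 0.091 (adjusted p = 0.281) and IPC+IPO by -0.14 ± 0.091 (adjusted p = 0.344). Without IRI rat 1, Bak1 was called in IPO against IRI (-0.25, adjusted p = 0.0329), and without IRI rat 9 its difference was -0.14 (adjusted p = 0.201).

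Set side by side, the 3 interventions left different numbers of BCL2 genes past the threshold. In IPC against IRI, 0 of the 10 were called, where 0.0276% of all genes were. At an unadjusted p under 0.05 there were 1 of the 10 (Bcl2l1) and 2799 of 14506 genes. In IPO against IRI, 2 of the 10 were called (Mcl1 higher, Bcl2l11 lower), where 22.8% of all genes were, 12.4% higher and 10.4% lower. In IPC+IPO against IRI, 0 of the 10 and 0% of all genes were called, with 1 (Mcl1) and 3118 at an unadjusted p under 0.05. In IPO the share of BCL2 genes called was thus close to that of all genes. Of the 10 differences from IRI, 8 were below 0 in IPO, 7 in IPC and 8 in IPC+IPO, with medians of -0.098, -0.07 and -0.074 against -0.04, -0.015 and -0.02 over all genes.

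Direct comparisons between the intervention groups called 0 of the 10 genes, as they called 0 of all 14506. Between IPC+IPO and IPO 1 of the 10 (Bcl2l11) and 482 of the 14506 genes had an unadjusted p under 0.05. The interaction of IPC and IPO also called 0 of the 10 and 0% of all genes. At an unadjusted p under 0.05 it had 2 of the 10 and 2942 of 14506 genes. For Mcl1 the interaction was -0.68 ± 0.35 (limma adjusted p = 0.252) and for Pmaip1 0.40 ± 0.20 (adjusted p = 0.242). That a gene was called in IPO and not in IPC therefore does not show that the interventions differ for it.

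Against Sham, 0 of the 10 were called in IPC, where 6.58% of all genes were, and 0 in IPC+IPO, where 3.62% were. In IPO against Sham 2 of the 10 were called, Mcl1 higher and Pmaip1 lower, where 23.2% of all genes were, 15.4% higher and 7.76% lower. At an unadjusted p under 0.05 there were 4 of the 10 in IPC and 3 each in IPO and IPC+IPO.

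**Figure D5:**
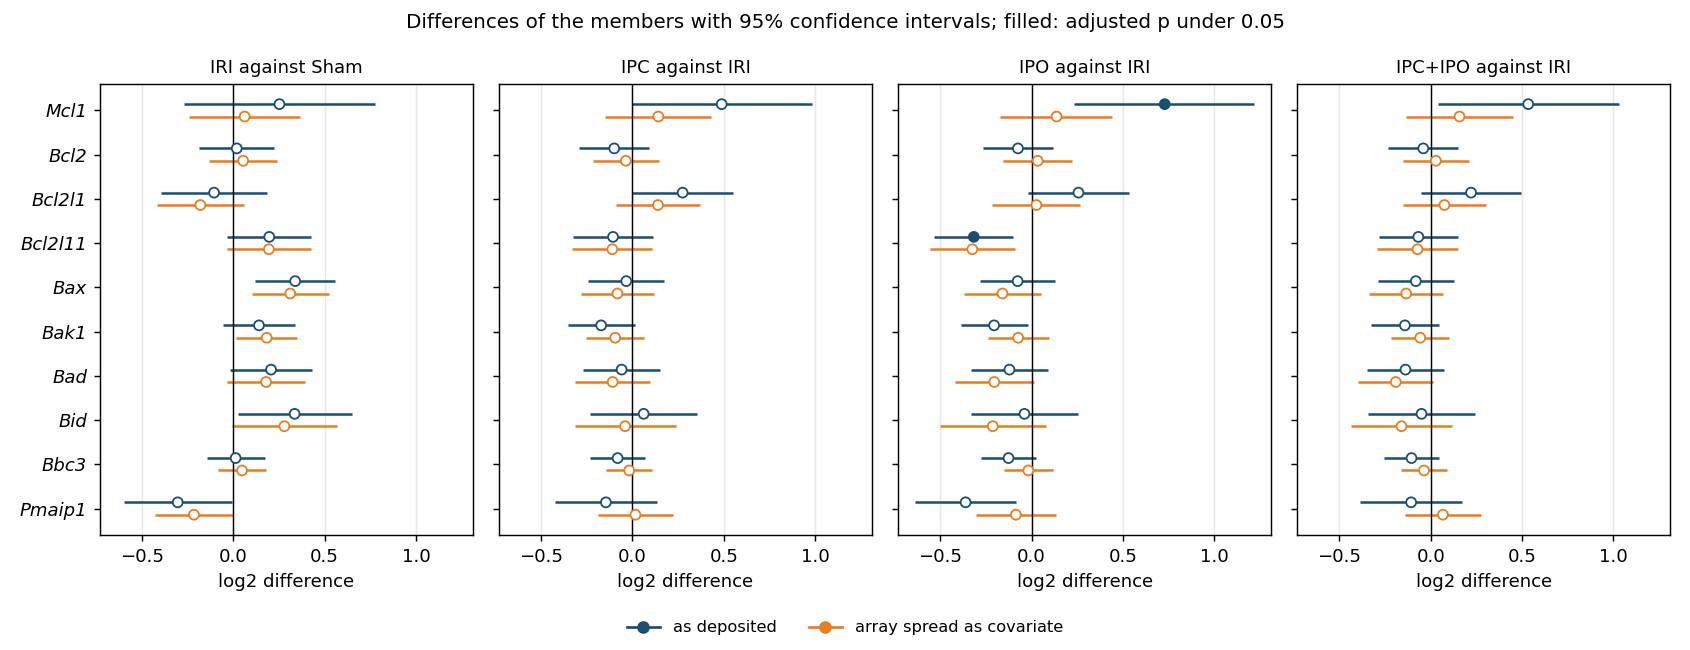
Log2 differences of the 10 genes in the 4 main comparisons with 95% intervals, without and with array spread as a covariate; filled points are called at a limma adjusted p under 0.05. Filled points appear for Mcl1 (0.73) and Bcl2l11 (-0.32) in IPO against IRI, and none is filled with the covariate.

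The death genes Bax, Bad and Bid varied together between rats of the same group. Correlations were taken over the 48 arrays after group means were removed, for all 45 pairs of the 10 genes, with p from permutations within groups and adjusted over the pairs. Bad and Bid had Pearson r = 0.704 and Spearman rho = 0.684 (permutation adjusted p = 0.000225 and 9e-05). Bax and Bid had r = 0.648 and rho = 0.655 (permutation adjusted p = 0.000225 and 9e-05), and Bax and Bad r = 0.6 and rho = 0.612 (permutation adjusted p = 0.000321 and 9e-05). Without the 2 arrays farthest from the median of the first gene, r was 0.661, 0.608 and 0.486. With spread removed as well, r was 0.67, 0.605 and 0.563, so these 3 relations were also there once spread was taken out.

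Bcl2l11 ran against this trio. Its r was -0.503 with Bax (rho -0.457, permutation adjusted p = 0.00675 and 0.00784), -0.459 with Bad (rho -0.441, permutation adjusted p = 0.007 and 0.00897) and -0.447 with Bid (rho -0.493, permutation adjusted p = 0.00952 and 0.00385). Without the 2 farthest arrays r was -0.405, -0.378 and -0.402, and with spread removed -0.534, -0.488 and -0.503. In livers where Bcl2l11 was high for its group, the trio tended to be low. An absolute r as large was reached by 22.4% (Bax), 28.7% (Bad) and 30.6% (Bid) of all gene pairs, so relations of this size were common on these arrays.

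Mcl1 and Pmaip1, whose proteins bind each other, ran in opposite directions, with r = -0.686 and rho = -0.695 (permutation adjusted p = 0.000225 and 9e-05) and r = -0.679 without the 2 farthest arrays. With spread removed r was -0.255, and the 2 genes lie on opposite sides of the median signal level. Mcl1 and Bak1 had r = -0.702 and rho = -0.67 (permutation adjusted p = 0.000225 and 9e-05), and -0.538 with spread removed. Of the 45 pairs, 19 had an adjusted p under 0.05 by Pearson r, 8 of them positive and 11 negative, the weakest at an absolute r of 0.348. Over all pairs of the 14506 genes, 46.1% reached an absolute r of that size, so the count is near the background. An r as large as that of Bad and Bid was reached by 3.46% of all gene pairs, of Bax and Bid by 6.84% and of Bax and Bad by 10.9%. The share was 3.57% for Mcl1 and Bak1 and 4.36% for Mcl1 and Pmaip1. For Bcl2l11 it was 22.4% with Bax, 28.7% with Bad and 30.6% with Bid. All values of a rat come from 1 array, so the pairs share whatever the array shares.

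The genes most like each called member in this measure were named by their r over the 48 arrays within groups. For Mcl1 they were Snx4 (0.913), Csnk2a2 (0.906) and Pign (0.902), and with spread removed these were 0.709, 0.654 and 0.655. For Pmaip1 they were Col13a1 (0.81), Col5a3 (0.796) and Hes7 (0.795), which were 0.612, 0.566 and 0.532 with spread removed. For Bcl2l11 they were Zc3h13 (0.647), Sp1 (0.633) and Klf9 (0.612), which were 0.66, 0.694 and 0.647. The genes were picked on the first of these values, and the values with spread removed are a description.

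Of 13 other BCL2 family genes 12 were measured, and in IPO against IRI 2 fell and 0 rose, where 10.4% of all genes fell and 12.4% rose. Bnip3, a hypoxia-induced gene of mitochondrial clearance, fell by 0.66 ± 0.18 (limma adjusted p = 0.0159), and Bcl2l10 fell by 0.49 ± 0.15 (adjusted p = 0.0271). Bnip3 had differed by 0.64 ± 0.19 between IRI and Sham (adjusted p = 0.102), and IPO and Sham differed by -0.018 ± 0.19. Bnip3 with the covariate was at -0.78 ± 0.19 in IPO against IRI (adjusted p = 0.0858), and Bcl2l10 at -0.15 ± 0.11. The median of the 12 was -0.14, against -0.04 over all genes.

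Of the 17 listed genes that act at or after the mitochondrial pore, 15 were measured, and 5 rose and 0 fell in IPO against IRI, with a median of 0.20 against -0.04 over all genes, of which 12.4% rose and 10.4% fell. Aifm1, a flavoprotein of the mitochondrial intermembrane space, rose by 0.73 ± 0.19 (limma adjusted p = 0.0148) and Cycs, cytochrome c itself, by 0.70 ± 0.19 (adjusted p = 0.0155). The pore channel gene Vdac2, whose protein binds BAK1, rose by 0.52 ± 0.14 (adjusted p = 0.0158), and the caspase inhibitor gene Xiap by 0.73 ± 0.20 (adjusted p = 0.0186). In the fit with spread the 4 differences were 0.24 ± 0.096, 0.33 ± 0.15, 0.20 ± 0.087 and 0.34 ± 0.17, none called, and the median of the list was -0.017.

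Genes that regulate BCL2 family members gave 6 rises and 1 fall in IPO against IRI among 17 measured of 20, with a median of 0.27, where 12.4% of all genes rose and 10.4% fell. Bag1, a partner of BCL2, rose by 0.67 ± 0.18 (limma adjusted p = 0.0175). The 14-3-3 genes Ywhab and Ywhaz, whose proteins hold BAD in the cytosol, rose by 0.49 ± 0.14 (adjusted p = 0.0197) and 0.54 ± 0.16 (adjusted p = 0.0212). Foxo1, a FOXO factor of the kind that drives Bcl2l11, rose by 0.53 ± 0.17 (adjusted p = 0.0287). With the covariate Foxo1 was at 0.175 ± 0.131 (limma adjusted p = 0.688). Whether the RNA level of Foxo1 bears on Bcl2l11 was not tested. Of 12 death receptor genes 1 rose, the TNF receptor Tnfrsf1b (0.60 ± 0.18, adjusted p = 0.0229), with a median of 0.19, a share below the 12.4% of all genes that rose. With the covariate, 0 genes of these 4 lists were called in IPO against IRI, with medians of 0.045 for the regulators and 0.0037 for the death receptor genes.

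In the other 3 main comparisons 0 genes of these 4 lists were called in the fit without spread. With the covariate, 5 were called in IRI against Sham, where 5.89% of all genes were. Xiap was at -0.79 ± 0.17 (limma adjusted p = 0.00412) and Ywhab at -0.34 ± 0.10 (adjusted p = 0.0428). Of the other BCL2 family genes, Bmf was at 0.40 ± 0.11 (adjusted p = 0.0263), Bcl2l12 at 0.33 ± 0.094 (adjusted p = 0.0276) and Bnip3 at 0.60 ± 0.18 (adjusted p = 0.0385). The gene of smallest p among the regulators over the 5 groups was Jun, a subunit of AP-1 known to be induced by stress kinases. Jun rose by 2.05 ± 0.38 in IPC against Sham (limma adjusted p = 0.00161), by 1.81 ± 0.38 in IPO (adjusted p = 0.00322) and by 1.88 ± 0.38 in IPC+IPO (adjusted p = 0.00655), and differed by 1.03 ± 0.38 in IRI (adjusted p = 0.235). With the covariate Jun stayed called in IPC, at 1.78 ± 0.39 (adjusted p = 0.00971), and was not called in IPO, at 1.41 ± 0.41 (adjusted p = 0.201), or in IPC+IPO, at 1.59 ± 0.39 (adjusted p = 0.0526). These changes share the Sham rats.

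Of the markers of liver cell types, some were called in IPO against IRI, where 22.8% of all genes were, and none of them was called there with the spread covariate. Of 7 measured Kupffer cell markers 2 rose, Cd5l by 0.79 ± 0.24 and Cd68 by 0.60 ± 0.21 (limma adjusted p = 0.0222 and 0.0391), and their mean level ran from 6.84 to 8.21 in IRI and from 7.09 to 8.56 in IPO. Of 8 hepatocyte markers Tat rose and Apoa1 fell, and their mean level ran from 11.47 to 11.94 in IRI and from 11.70 to 12.02 in IPO. Of 8 neutrophil markers Ngp fell, with mean levels of 4.64 to 5.12 in IRI and 4.53 to 5.20 in IPO; S100a8 lay on the other side of 0 without passing, at 0.70 ± 0.28 (adjusted p = 0.0565). Of 4 erythroid markers Hbb fell. Of 6 stellate cell markers Pdgfrb rose, and 0 of 4 measured endothelial and 0 of 3 measured bile duct markers were called. Of 6 measured lymphocyte markers 0 were called, with mean levels of 4.33 to 4.85 in IRI and 4.35 to 4.70 in IPO. Their part in the differences of Mcl1 and Bcl2l11 was not tested.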

How the data were processed

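Liver RNA of 48 rats was measured, 1 array per rat. The authors made the deposited log2 values with RMA in Affymetrix Expression Console, per the submitters' processing notes; RMA corrects background, quantile normalizes and summarises probes. Versions, filters and hybridization batches are not given in the sources used here. Groups came from sample titles. Of 29215 probe sets, 15310 had 1 symbol in the platform annotation, 323 several and 13582 none. The probe set of highest mean stood for each of 14506 genes, with no filter on dim genes. The number of arrays limits precision.

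Limma 3.58.1 (lmFit, eBayes) in R 4.3.3 fitted all 5 groups in 1 model (43 residual degrees of freedom) without covariates, and p was adjusted by Benjamini-Hochberg over all genes of a comparison, threshold 0.05. The 10 pairwise comparisons, the interaction and the moderated F test were run; IRI against Sham and each intervention against IRI were the main ones. Correlations with spread used 100000 permutations of arrays, and those between members 100000 permutations within groups (smallest p 1e-05). The pipeline was tested on simulated data. Promoters came from RefSeq (GRCr8), and 8 of 10 members had a window. Figures used matplotlib 3.10.9 in Python 3.11.15.

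All members are named. From 4 lists of related genes, those called in a main comparison are named, at most the 4 of smallest p, or else those of smallest F test p; genes most like a member are the 3 of highest r. The members and lists were chosen with earlier results of these data known. Alternatives were: only the groups compared, median centring, renewed quantile normalization, spread as a covariate, the 14 arrays of lowest spread omitted, array weights, a trended robust variance, the dimmest 33.3% of genes omitted, the probe set of largest variance, a threshold of 0.01, and omission of each array in turn. The second probe sets of Mcl1, Bax and Bcl2l1 and the correlations between members, with their share over all gene pairs, were added after seeing the data. Some related genes, and 1 further list of them, are not reported here.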

Additional observations from a re-analysis of the deposited data

Results flagged for a closer look

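In 6 of 50 sets of values (10 genes in 5 groups), 1 rat stood apart from its group by Dixon's ratio. Chance gives about 1 in 20 for independent sets, but these sets share arrays and are not independent. The rate over all genes was not tested, so an excess in the BCL2 genes is not shown. Bcl2 was at 5.43 in IRI rat 9, next to 4.88. Bcl2l1 was at 6.70 in IPO rat 24, next to 7.10, and at 6.04 in IPC+IPO rat 38, next to 6.84; rat 38 has the lowest array spread of all (1.498). Bid was at 6.69 in IPO rat 30, next to 7.40, and Bad at 6.88 in IPC+IPO rat 34, next to 6.56. Bbc3 was at 7.69 in IRI rat 7, next to 7.40, and this array has a spread of 1.54. No rat stood apart by this measure for Mcl1, Pmaip1, Bcl2l11, Bax or Bak1. Removal of rat 38 turned Bcl2l1 in IPC+IPO against IRI from uncalled to called, and removal of IRI rat 7 ended the calls of Mcl1 and Bcl2l11 in IPO against IRI.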

How the results depend on the processing

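No paired analysis was possible because the rats are numbered through from group to group and share no number. In IPO against IRI, where 2 members were called, 0 were called after renewed quantile normalization, with array spread as a covariate and at an adjusted p under 0.01, and 1 (Bcl2l11) without the 14 arrays of lowest spread; with 1 array left out the count ran from 0 (without IRI 7, IPO 22, 26 or 27) to 3. In IPO against Sham, 2 became 0 with the covariate and without the 14 arrays (2 Sham arrays remain there), and 6 with array weights, and ran from 2 to 4 (without IPO 30) with 1 array left out. In the test over 5 groups, 2 became 1 after renewed quantile normalization, 0 with the covariate, without the 14 arrays and at an adjusted p under 0.01, and 6 with array weights, and ran from 0 (without Sham 42 or 46) to 3 (without Sham 48). Comparisons with 0 members called gained calls as follows. IRI against Sham had 3 with array weights and 0 to 1 with 1 array left out (without Sham 48). IPC+IPO against IRI had 2 with array weights and 0 to 1 with 1 array left out (without IPC+IPO 38). IPC against Sham had 5 with array weights, 1 with a trended robust variance, 1 without the dimmest 33.3% of genes, and 0 to 4 with 1 array left out (without Sham 48). IPC+IPO against Sham had 6 with array weights and 0 to 3 with 1 array left out (without IPC+IPO 38 or Sham 48). Over all genes, the 3307 called in IPO against IRI became 1383 after renewed quantile normalization, 2 with the covariate, 1077 without the 14 arrays, 6098 with array weights and 41 at an adjusted p under 0.01, and ran from 395 (without IRI 7) to 5345 (without IRI 1) with 1 array left out. The 35 in IRI against Sham became 0 in a fit of those groups alone, 259 after renewed quantile normalization, 854 with the covariate, 3 without the 14 arrays, 1894 with array weights, 57 without the dimmest 33.3% and 2 at an adjusted p under 0.01. In IPC against IRI the 4 ran from 0 to 568, and in IPC+IPO against IRI 0 became up to 4484, both with array weights. Single arrays whose removal brought a member past the threshold against Sham were as follows. In IPC they were IPC 12, Sham 43 or 48 for Mcl1, Sham 43 or 48 for Bax and Sham 48 for Bid. In IPO they were IPO 30, IPC+IPO 38, Sham 43 or 48 for Bax and IPO 30 for Bid. In IPC+IPO they were IPC+IPO 37 or 38, Sham 43 or 48 for both Mcl1 and Pmaip1, and also IRI 7 for Mcl1. For Bax they were IPC+IPO 38 or Sham 48 in IPC+IPO and Sham 48 in IRI. Pmaip1 in IPC against Sham, at an adjusted p of 0.0522, passed without any one of 11 arrays. The dimmest 33.3% of genes hold Bcl2 and Bcl2l11, which the filter leaves without a value. The fit of only the groups compared was not run for the test over 5 groups. No called member changed direction under an alternative. The cause of these shifts was not tested.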
